A study of Homo sapiens with 32 samples.

Results

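MicroRNA host genes are long noncoding genes whose transcripts carry 1 or more microRNA hairpins, and N6-methyladenosine (m6A) on these transcripts was examined in 4 human cancer cell lines with and without knockdown of METTL3. Members were the RefSeq genes on chromosomes 1 to 22 and X whose symbol is MIR, then digits or letters, then HG, with MIR3667HG left out, which gave 75 of 59098 genes. Chromatin-associated RNA was fragmented, and the fragments that carry m6A were enriched with an antibody (MeRIP) and sequenced beside input RNA in 32 libraries, 16 MeRIP and 16 input. The values used were 12 lists of m6A peaks, each a list of genome intervals where the MeRIP reads stood above input. LOVO and RKO are colon adenocarcinoma cells and OVCAR8 and SKOV3 are ovarian cancer cells. In each line the tested cells carried a short hairpin RNA to METTL3 (shMETTL3, genotype METTL3 knockdown) and the control cells are labelled WT, with a control hairpin (shControl) in the names of the ovarian libraries and of the colorectal peak lists. Each ovarian group had 2 lists, 1 per MeRIP library, and each colorectal group had 1 list for 2 MeRIP libraries. The labels do not say whether replicates came from separate cultures, so the spread between lists may be technical.

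m6A is written onto adenosines of nuclear RNA by a complex whose catalytic subunit is METTL3. A microRNA host transcript is a primary microRNA: DROSHA with DGCR8 cuts the hairpin out in the nucleus, and DICER1 then trims it to the mature strand that an AGO protein carries. METTL3 has been described as marking primary microRNAs for recognition by DGCR8, with HNRNPA2B1 as a nuclear reader of such marks. A peak shows that methylated fragments of a transcript were enriched. It does not measure how much of the RNA was present, and fewer peaks from less of a transcript and from less m6A on it cannot be told apart here. The levels of input RNA were not analysed here.

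The first 7 mature sequences below are printed because their hosts, among them MIRLET7BHG and MIR100HG with the most peaks, carry microRNAs that share seeds or lie in the same host. miR-34a is added because peaks lay beside its hairpin, and miR-924 and miR-31 because their hosts also had many peaks. Capitals mark the seed, bases 2 to 8 from the 5′ end. All are from RefSeq (GRCh38.p14).
hsa-let-7a-5p: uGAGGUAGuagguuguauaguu
hsa-let-7b-5p: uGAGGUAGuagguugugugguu
hsa-let-7c-5p: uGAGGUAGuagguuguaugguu
hsa-let-7i-5p: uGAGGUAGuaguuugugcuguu
hsa-miR-100-5p: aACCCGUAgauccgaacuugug
hsa-miR-99a-5p: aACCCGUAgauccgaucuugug
hsa-miR-125b-5p: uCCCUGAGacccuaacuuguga
hsa-miR-34a-5p: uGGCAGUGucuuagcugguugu
hsa-miR-924: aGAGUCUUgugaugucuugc
hsa-miR-31-5p: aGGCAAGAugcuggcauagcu
The 4 let-7 strands share the seed GAGGUAG and come from MIRLET7BHG (let-7a from MIRLET7A3, let-7b), MIR100HG (let-7a from MIRLET7A2), MIR99AHG (let-7c), MIRLET7IHG (let-7i) and MIRLET7A1HG (let-7a from MIRLET7A1). miR-100 of MIR100HG and miR-99a of MIR99AHG share ACCCGUA. MIR100HG also carries miR-125b from MIR125B1.

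A peak on the hairpin's strand reached the hairpin itself in 4 of the 109 hairpins that RefSeq places inside the host genes. These 4 are printed for that reason. The hairpin of MIR130A is added because a peak lay next to it in all 8 ovarian lists. Capitals mark the motif GGAC, a common form of the METTL3 target sequence, in MIR4453 and MIR3619. In MIR34A, which has no GGAC, capitals mark the 16 bases that the RKO knockdown peak covered. MIR570 and MIR130A hold no GGAC.
MIR34A: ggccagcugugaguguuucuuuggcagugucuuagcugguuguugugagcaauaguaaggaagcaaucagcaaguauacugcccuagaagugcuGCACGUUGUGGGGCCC
MIR570: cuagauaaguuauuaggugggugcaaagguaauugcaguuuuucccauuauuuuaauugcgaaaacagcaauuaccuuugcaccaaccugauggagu
MIR4453: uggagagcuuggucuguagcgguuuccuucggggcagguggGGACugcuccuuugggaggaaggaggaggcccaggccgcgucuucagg
MIR3619: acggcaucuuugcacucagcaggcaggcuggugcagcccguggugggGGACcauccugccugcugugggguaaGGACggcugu
MIR130A: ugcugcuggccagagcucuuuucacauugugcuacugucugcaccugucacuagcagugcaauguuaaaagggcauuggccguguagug

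The knockdown lists of both ovarian lines shared more peaks with the other line's control than with their own, and every comparison below has to be read with that. Peaks of the lists labelled OVCAR8 knockdown were shared with SKOV3 control lists in 95.9% of cases and with OVCAR8 control lists in 69.3%. For peaks inside the host genes these shares were 95% and 55%. Peaks of the lists labelled SKOV3 knockdown were shared with OVCAR8 control lists in 81.9% of cases and with SKOV3 control lists in 56.5% (80.9% and 41.9% inside host genes). Of all peaks in the RKO-labelled knockdown list, 45.1% overlapped one of RKO control, its highest share, beside 43.0% for LOVO control, 39.9% for SKOV3 control and 33.3% for OVCAR8 control. Of its peaks in host genes, 21.5% overlapped one of RKO control, beside 27.8% for LOVO control, 20.3% for SKOV3 control and 31.0% for OVCAR8 control. In LOVO the knockdown list had its largest overlap with LOVO control (73.1% of all peaks, 68.8% in host genes). Summed peaks in 8 ovarian carcinoma markers were 4 and 7 in OVCAR8-labelled knockdown against 31 and 30 in OVCAR8 control, and 24 and 21 in SKOV3-labelled knockdown against 9 and 8 in SKOV3 control. They were 8 in LOVO knockdown against 15 in LOVO control and 2 in RKO-labelled knockdown against 16 in RKO control. WT1, SOX17 and EMX2 had no peak in any list. Summed peaks in 10 colorectal markers were 29 in LOVO knockdown against 33 in LOVO control, 6 in RKO-labelled knockdown against 8 in RKO control, and 1 to 7 in the ovarian lists. ASCL2 had no peak in any list, and HNF4A, LGR5 and CDH17 had none in either RKO list. METTL3 itself had 1 and 1 peaks in OVCAR8-labelled knockdown against 0 and 1 in control, 0 and 0 in SKOV3-labelled knockdown against 1 and 3 in control, 2 against 2 in LOVO and 3 against 2 in RKO. A peak is no level, so these counts do not check the knockdown.

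Of the 75 host genes, 37 (49.3%) overlapped a peak in at least 1 of the 12 lists and 38 overlapped none. The same share was 32.4% over all 59098 genes, 21.7% over 18177 lncRNA genes, 31.0% over 29 small nucleolar RNA host (SNHG) genes and 15.0% over 2301 LINC genes. Host genes with a peak were longer (median 29.7 kb) than those without one (9.87 kb), and length was not held equal in these shares. The hosts held 656 peaks over the 12 lists. MIRLET7BHG, MIR100HG and MIR924HG together gave 39.8% of them, and the top 10 genes 76.1%. Of 588 peaks in hosts with an annotated strand, 560 (95.2%) lay on the host's own strand, near the 93.7% of all genes. For 4 hosts every peak lay on the opposite strand: MIR137HG, MIR302CHG, MIR3976HG and MIR4458HG. Of 9 hosts of microRNAs known mainly from muscle, liver, neurons, blood or germ cells, 3 had a peak (MIR137HG, MIR302CHG and MIR325HG) and 6 had none, among them MIR122HG (liver), MIR133A1HG (muscle) and MIR142HG (blood cells). Only MIRLET7BHG and MIR570HG had a peak in every one of the 12 lists.

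Host-gene peaks numbered 25 and 25 in the lists labelled OVCAR8 knockdown against 81 and 91 in OVCAR8 control. They numbered 50 and 57 in SKOV3-labelled knockdown against 45 and 45 in SKOV3 control. LOVO had 64 in knockdown against 54 in control, and RKO had 79 in the labelled knockdown against 40 in control. The OVCAR8-labelled groups did not overlap, with knockdown low, and the SKOV3-labelled groups did not overlap, with knockdown high. The lists differ in length, from 15484 peaks in the shortest OVCAR8-labelled knockdown list to 37398 in RKO control. Per 10000 peaks of a list, hosts held 16.0 ± 0.19 in OVCAR8-labelled knockdown and 30.2 ± 2.08 in OVCAR8 control, and 20.2 ± 1.497 in SKOV3-labelled knockdown and 15.5 ± 0.070 in SKOV3 control (SD, n = 2 lists each). LOVO held 20.6 per 10000 in knockdown and 14.9 in control, and RKO 23.2 in the labelled knockdown and 10.7 in control, with 1 list each and no spread.

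**Figure D1:**
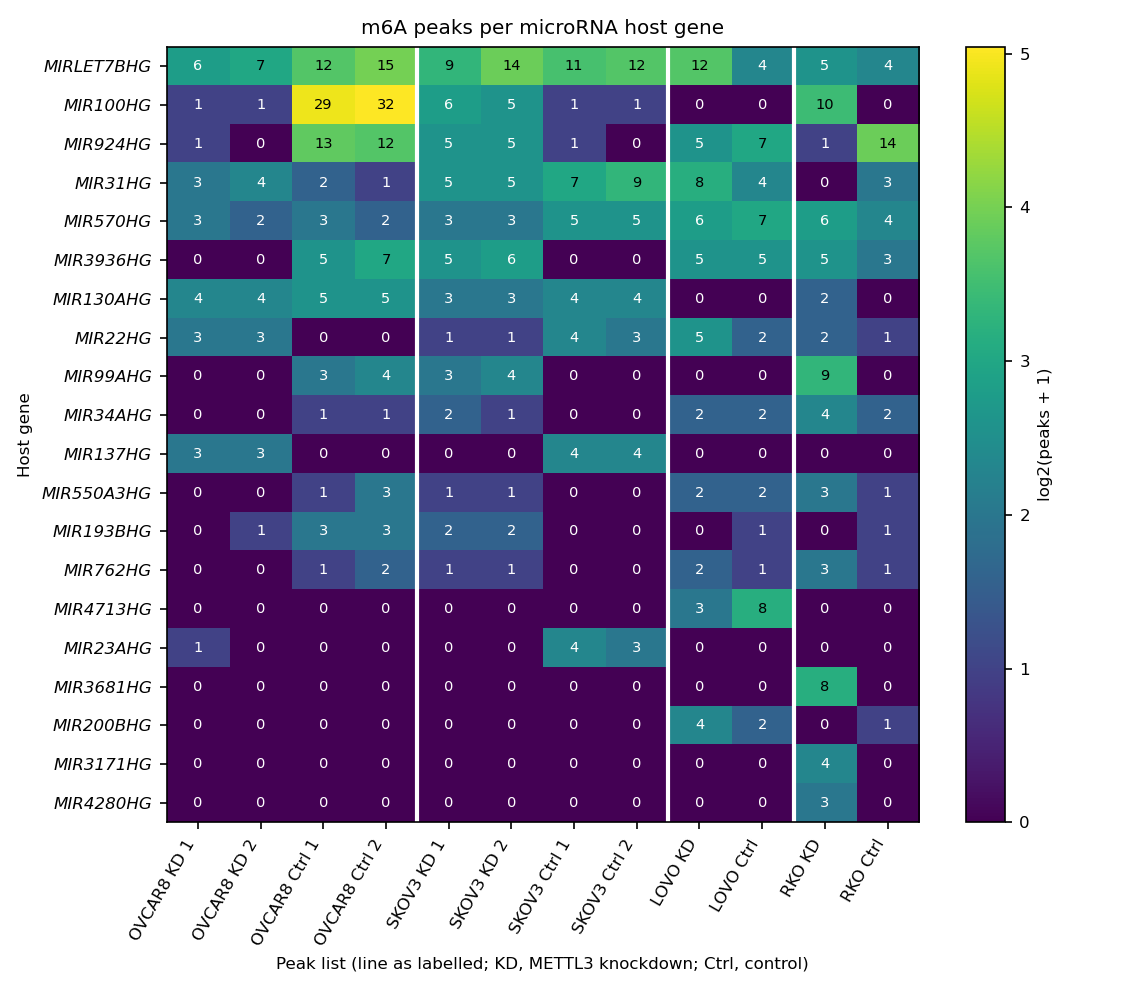
Number of m6A peaks overlapping each of the 20 host genes that had at least 3 peaks in at least 1 list (rows, by falling mean over the 12 lists) in every list (columns, knockdown left of control within each line as labelled). The printed number is the count and the colour is log2(peaks + 1). MIR100HG reaches 29 and 32 peaks in the OVCAR8 control lists, and MIRLET7BHG and MIR570HG have a peak in every list.

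Of the let-7 and miR-99/100 hosts, MIRLET7BHG (111 peaks over the 12 lists) and MIR100HG (86) had the most peaks of all hosts, while MIR99AHG had 23, MIRLET7IHG 12 and MIRLET7A1HG 0. let-7 microRNAs are known as tumour suppressors that hold down RAS and MYC family messages. MIR99AHG and MIR100HG are paralogous host genes, each with a let-7, a miR-99 family and a miR-125b hairpin. MIRLET7BHG (chromosome 22, 46085997-46113928, plus strand, hg38) had 6 and 7 peaks in OVCAR8-labelled knockdown against 12 and 15 in OVCAR8 control. It had 9 and 14 in SKOV3-labelled knockdown against 11 and 12 in SKOV3 control, 12 in LOVO knockdown against 4 in LOVO control, and 5 against 4 in RKO. Knockdown was low without overlap in OVCAR8, the groups overlapped in SKOV3, and LOVO knockdown was the higher list. All 111 of its peaks were on its strand, and all also overlapped at least 1 of 2 uncharacterized genes annotated on that strand (LOC124905135, LOC112268288), so the transcript they belong to cannot be told apart.

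Of 14 merged regions on MIRLET7BHG, 2 had a peak in all 12 lists, at chr22:46085940-46089538 around the start and at chr22:46099297-46100300 in the gene body. Of its 12 LOVO knockdown peaks, 8 had no control counterpart, and none of its 4 LOVO control peaks was missing in knockdown. Of 12 OVCAR8 control regions, 8 had no peak in either list labelled OVCAR8 knockdown. Its 9 SKOV3 control regions all had a SKOV3-labelled knockdown peak.

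MIR100HG (chromosome 11, 122028329-122422871, minus strand) had 1 and 1 peaks in OVCAR8-labelled knockdown against 29 and 32 in OVCAR8 control, and 6 and 5 in SKOV3-labelled knockdown against 1 and 1 in SKOV3 control. Both LOVO lists had 0, and RKO had 10 in the labelled knockdown against 0 in control. The gene was dense in the OVCAR8 control lists, and the RKO-labelled knockdown list held many peaks where RKO control held none. Its 86 peaks merged into 43 regions, of which 29 were seen in OVCAR8 control lists alone and 6 in the RKO-labelled knockdown list alone. All 25 regions shared by both OVCAR8 control lists lacked a peak in the OVCAR8-labelled knockdown. The strongest OVCAR8 control peaks lay at chr11:122333140-122333491 and chr11:122333054-122333486, with the authors' fold enrichment at 31.7 and 31.7. The peak of OVCAR8-labelled knockdown lay in the same region, chr11:122091417-122091732, as that of SKOV3 control.

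MIR99AHG (chromosome 21, 16070488-16631727, plus strand) had 0 and 0 peaks in OVCAR8-labelled knockdown against 3 and 4 in OVCAR8 control, and 3 and 4 in SKOV3-labelled knockdown against 0 and 0 in SKOV3 control. Both LOVO lists had 0, and RKO had 9 in the labelled knockdown against 0 in control. The lists with peaks in MIR99AHG were the OVCAR8 control, SKOV3-labelled knockdown and RKO-labelled knockdown lists, and in each of these its paralog MIR100HG had at least 5. MIRLET7IHG had 0 and 0 peaks in OVCAR8-labelled knockdown against 0 and 1 in OVCAR8 control, 1 and 1 against 1 and 1 in SKOV3, 2 against 2 in LOVO and 2 against 1 in RKO.

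**Figure D2:**
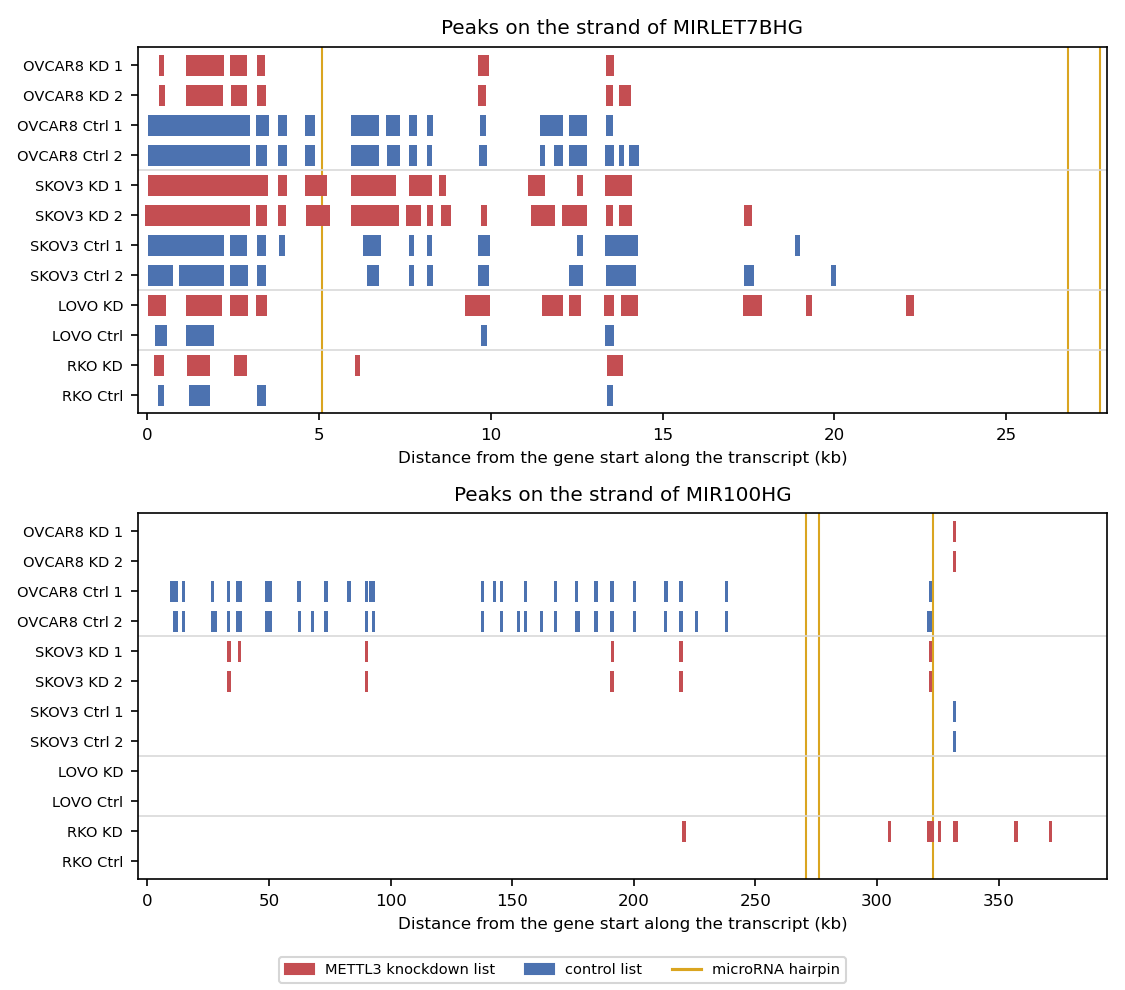
Peaks on the strand of MIRLET7BHG (top) and MIR100HG (bottom) in each list, by distance from the gene start along the transcript in kb, with knockdown lists in red above control lists in blue for each line as labelled. Gold lines mark microRNA hairpins (from left, MIR3619, MIRLET7A3 and MIRLET7B above, and MIR100, MIRLET7A2 and MIR125B1 below), and very narrow peaks are drawn at a minimum width. In MIR100HG the OVCAR8 control lists carry 29 and 32 peaks and both LOVO lists carry none.

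Of the other hosts with many peaks, MIR924HG (chromosome 18, 39206924-39751995, minus strand) had 1 and 0 peaks in OVCAR8-labelled knockdown against 13 and 12 in OVCAR8 control, and 5 and 5 in SKOV3-labelled knockdown against 1 and 0 in SKOV3 control. LOVO had 5 in knockdown against 7 in control, and RKO 1 in the labelled knockdown against 14 in control. The OVCAR8 and RKO control lists were the high ones. All 14 RKO control regions lacked a peak in the RKO-labelled knockdown, against 2 of 7 in LOVO and 10 of 11 in OVCAR8. MIR3936HG (chromosome 5, 132311276-132369916, minus strand) had 0 and 0 peaks in OVCAR8-labelled knockdown against 5 and 7 in OVCAR8 control, and 5 and 6 in SKOV3-labelled knockdown against 0 and 0 in SKOV3 control. It had 5 against 5 in LOVO and 5 against 3 in RKO. All its 41 peaks were on the minus strand, opposite to the carnitine transporter genes SLC22A4 and SLC22A5 that share the locus.

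MIR31HG (chromosome 9, 21454268-21559798, minus strand), host of miR-31, had 3 and 4 peaks in OVCAR8-labelled knockdown against 2 and 1 in OVCAR8 control, and 5 and 5 in SKOV3-labelled knockdown against 7 and 9 in SKOV3 control. LOVO had 8 in knockdown against 4 in control, and RKO 0 in the labelled knockdown against 3 in control. Of these 3 RKO control peaks, 2 lay on the plus strand, opposite to the host. The OVCAR8 groups did not overlap, with knockdown high, and the SKOV3 groups did not overlap, with knockdown low. MIR570HG (chromosome 3, 195688498-195711875, no strand given in the table used) had 3 and 2 against 3 and 2 in OVCAR8, 3 and 3 against 5 and 5 in SKOV3, 6 against 7 in LOVO and 6 against 4 in RKO, knockdown first. Its counts stayed between 2 and 7 in all 12 lists. It overlaps SDHAP2, a pseudogene with near-identical copies, so its peaks are uncertain, and 35 of its 49 peaks overlapped no other gene.

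Of 7 hosts linked to p53, DNA damage and hypoxia, 4 had a peak, beside 37 of all 75 hosts, and MIR34BHG, MIR497HG and MIR503HG had none. miR-34a is a direct p53 target that halts the cell cycle. Its host MIR34AHG (chromosome 1, 9148011-9182338, minus strand) had 0 and 0 peaks in OVCAR8-labelled knockdown against 1 and 1 in OVCAR8 control, 2 and 1 in SKOV3-labelled knockdown against 0 and 0 in SKOV3 control, 2 against 2 in LOVO and 4 against 2 in RKO. MIR22HG (chromosome 17, 1711504-1716210, minus strand), a short host induced by stress, had 3 and 3 in OVCAR8-labelled knockdown against 0 and 0 in OVCAR8 control, and 1 and 1 in SKOV3-labelled knockdown against 4 and 3 in SKOV3 control. LOVO had 5 in knockdown against 2 in control, and RKO 2 against 1. In LOVO, 3 of its 5 knockdown regions were without a control peak, and none of its 2 control regions was lost. MIR193BHG had 0 and 1 against 3 and 3 in OVCAR8, 2 and 2 against 0 and 0 in SKOV3, 0 against 1 in LOVO and 0 against 1 in RKO, knockdown first. MIR210HG, host of the hypoxia microRNA miR-210, had 1 peak, in the RKO-labelled knockdown.

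Among epithelial and proliferation hosts, MIR200BHG, host of miR-200b and miR-429 that keep cells epithelial, had 4 peaks in LOVO knockdown against 2 in LOVO control, 0 in RKO-labelled knockdown against 1 in RKO control, and none in the ovarian lists. MIR200CHG had 1 against 1 in LOVO and none elsewhere. MIR17HG, the MYC-linked host of the miR-17 to miR-92a cluster, had 1 peak, in LOVO knockdown. MIR23AHG, which carries miR-23a, miR-27a and miR-24-2, had 1 and 0 peaks in OVCAR8-labelled knockdown against 0 and 0 in OVCAR8 control, 0 and 0 in SKOV3-labelled knockdown against 4 and 3 in SKOV3 control, and none in LOVO or RKO. MIR222HG, host of miR-221 and miR-222, had 1 and 1 against 1 and 1 in SKOV3 and none elsewhere. Of the 9 proliferation hosts 7 had a peak, beside 37 of all 75 hosts, and MIR155HG and MIR29B2CHG had none. Apart from MIR31HG and MIR23AHG, they had at most 2 peaks in any list. MIR210HG is counted here and among the hosts linked to p53, DNA damage and hypoxia.

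MIR130AHG (chromosome 11, 57638376-57652901, plus strand) had 4 and 4 peaks in OVCAR8-labelled knockdown against 5 and 5 in OVCAR8 control, 3 and 3 in SKOV3-labelled knockdown against 4 and 4 in SKOV3 control, 0 against 0 in LOVO and 2 in RKO-labelled knockdown against 0 in RKO control. The 8 ovarian lists held 3 to 5 peaks each and both LOVO lists none. MIR137HG had 3 and 3 peaks in OVCAR8-labelled knockdown against 0 and 0 in OVCAR8 control, 0 and 0 in SKOV3-labelled knockdown against 4 and 4 in SKOV3 control, and none in LOVO or RKO. All 14 were on the strand opposite to the gene, so none lay on the strand of the host transcript. MIR550A3HG had 0 and 0 against 1 and 3 in OVCAR8, 1 and 1 against 0 and 0 in SKOV3, 2 against 2 in LOVO and 3 against 1 in RKO, knockdown first.

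MIR762HG had 0 and 0 against 1 and 2 in OVCAR8, 1 and 1 against 0 and 0 in SKOV3, 2 against 1 in LOVO and 3 against 1 in RKO, knockdown first, and every peak overlapped BCL7C. The 3 in RKO-labelled knockdown lay on the minus strand, opposite to the host and on the strand of BCL7C. Its other 9 peaks, that of RKO control among them, lay on the host's plus strand, where the RKO-labelled knockdown list had none. MIR4713HG (256 kb) had 3 peaks in LOVO knockdown against 8 in LOVO control and none in any other list, and 3 of the 11 overlapped no other gene. MIR3681HG had 8 peaks, MIR3171HG 4 and MIR4280HG 3 in the RKO-labelled knockdown, and these 3 genes had none in any other list. MIR4453HG had 1 in each of the 4 colorectal lists. The remaining 16 hosts with a peak, some of them described above, had at most 2 in any list.

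Whether a host's peak number differed between knockdown and control over the 4 lines was tested with an exact two-sided permutation test of log2(peaks + 1), shuffling lists within each line over all 144 arrangements. The test ran on the 8870 genes with a mean of at least 1 peak, with Benjamini-Hochberg adjustment over all of them, and called 0.0% of genes. The smallest adjusted p was 0.821, and the smallest unadjusted p this design can give is 0.0139. With that floor, an adjusted p under 0.05 would need a large share of all tested genes at the floor together. The test could therefore hardly call any gene, and the lack of calls does not show that peak numbers were alike. Unadjusted, 297 genes (3.35%) had a p under 0.05, and none of the 15 hosts tested was among them. MIR22HG had the smallest p of the hosts, with a mean difference of 0.61 in log2(peaks + 1), knockdown minus control (exact permutation p = 0.194, adjusted p = 0.951). It was higher in knockdown in OVCAR8, LOVO and RKO and lower in SKOV3. MIR924HG had a difference of -1.12 (exact permutation p = 0.236, adjusted p = 0.953), lower in OVCAR8, LOVO and RKO and higher in SKOV3. The median difference of the 15 hosts was 0.125, beside -0.19 for all genes tested.

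Within a line, a host was called lower or higher where peaks + 1 differed by at least 2-fold and the lists did not overlap. With 1 or 2 lists a group this carries no p-value, and over the 4 lines it gave 22 lower and 31 higher calls. In OVCAR8, 10 of 20 hosts with a peak were called lower in the labelled knockdown, where 35.8% of all genes were, and 2 of 20 higher, where 11.8% were. In SKOV3, 4 of 22 were called lower, where 23.9% of all genes were, and 10 of 22 higher, where 17.8% were. Of LINC genes 49.7% were lower in OVCAR8 and 28.7% higher in SKOV3, and of lncRNA genes 39.4% and 20.8%. For SNHG genes these were 1 of 5 and 2 of 7. The 10 hosts lower in OVCAR8-labelled knockdown were the same 10 that were higher in SKOV3-labelled knockdown: MIR34AHG, MIR99AHG, MIR100HG, MIR193BHG, MIR550A3HG, MIR600HG, MIR762HG, MIR924HG, MIR1915HG and MIR3936HG. Over all genes, 48.9% of those lower in OVCAR8 were higher in SKOV3, and these were 87.9% of those higher in SKOV3. The 2 hosts higher in OVCAR8, MIR22HG and MIR137HG, were both lower in SKOV3. Over all genes, 1190 of the 1353 higher in OVCAR8 were lower in SKOV3. These are the directions in which OVCAR8 control differs from SKOV3 control, and the sharing of peaks given above moves with them. Line and knockdown cannot be told apart in the ovarian lists.

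In LOVO, 2 of 21 hosts were called lower in knockdown (MIR193BHG and MIR4713HG), where 20.4% of all genes were, and 4 of 21 higher (MIRLET7BHG, MIR22HG, MIR17HG and MIR3677HG), where 10.4% were. In RKO, 6 of 29 were called lower in the labelled knockdown (MIR31HG, MIR193BHG, MIR200BHG, MIR302CHG, MIR600HG and MIR924HG), where 30.5% of all genes were, and 15 of 29 higher, where 25.9% were. Peaks on either strand count in these calls. Of the 15 higher in RKO, MIR762HG, MIR3976HG and MIR4458HG had only peaks opposite to the host's strand in that knockdown list. Of the 6 lower in RKO, the RKO control peak of MIR302CHG lay opposite to the host's strand, as did 2 of the 3 RKO control peaks of MIR31HG. MIR193BHG was the only host called lower in both colorectal lines, with 0 against 1 peak in each. MIR3677HG was the only one called higher in both, with 1 against 0 peaks in each. With 1 list a group, 1 peak against 0 is enough for a call. The higher calls of MIR17HG in LOVO and of MIR210HG, MIR325HG, MIR3659HG and MIR4458HG in RKO also rested on 1 against 0. So did the lower calls of MIR200BHG, MIR302CHG and MIR600HG in RKO, with 0 against 1. For lncRNA genes as a whole, 40.4% were higher in the RKO-labelled knockdown, and for LINC genes 49.3%.

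Merged control regions were called lost where every knockdown list of that line lacked a peak there, and knockdown regions gained where every control list did. Shares are given with a 95% Wilson interval, which covers counting error only and takes the regions of 1 gene as independent, which they are not. In OVCAR8, 9 of 22 knockdown regions in hosts were gained (40.9%, interval 23.3 to 61.3%), beside 24.3% over all genes, and 59 of 72 control regions were lost (81.9%, 71.5 to 89.1%), beside 56.7%. MIR100HG alone gave 25 of the 59, and without it 34 of 47 were lost. In SKOV3, 27 of 46 were gained (58.7%, 44.3 to 71.7%), beside 35.5%, and 16 of 39 lost (41.0%, 27.1 to 56.6%), beside 42.2%. In LOVO, 20 of 64 were gained (31.3%, 21.2 to 43.4%), beside 26.9%, and 14 of 54 lost (25.9%, 16.1 to 38.9%), beside 36.9%. In RKO, 62 of 79 were gained (78.5%, 68.2 to 86.1%), beside 51.9%, and 25 of 40 lost (62.5%, 47.0 to 75.8%), beside 59.6%. Beside the 3 host shares farthest above those of all genes, LINC genes and lncRNA genes as a whole were above all genes too. LINC genes lost 76.9% of their OVCAR8 regions and lncRNA genes 64.8%. Gained shares in SKOV3 were 60.3% for LINC and 45.8% for lncRNA genes, and in RKO 71.6% and 66.6%. SNHG genes were below all genes in OVCAR8 losses (4 of 14, 28.6%) and SKOV3 gains (4 of 14, 28.6%). They were above all genes in RKO gains (18 of 29, 62.1%). With the same number of strongest peaks taken from each list, the lost share was 48.3% in LOVO and 35.7% in RKO.

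Of the 72 OVCAR8 control regions, 30 (41.7%) had no peak in the lists labelled SKOV3 knockdown, beside 14.0% over all genes. LOVO losses fell on weak peaks. With the LOVO control list ranked by the authors' peak score and cut into 3 equal groups, 9 of 16 host regions in the lowest group were lost, 4 of 12 in the middle group and 1 of 26 in the highest. Over all genes the lost shares of these groups were 58.0%, 40.0% and 13.3%. MIR4713HG held 5 of the 14 LOVO losses, MIR924HG 2, MIR3936HG 2 and MIR181A1HG 2. Gains in LOVO were led by MIRLET7BHG with 8 and MIR22HG with 3. RKO gains were led by MIR100HG with 10 of 10, MIR99AHG with 9 of 9 and MIR3681HG with 8 of 8, and 14 of the 25 RKO losses were in MIR924HG.

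**Figure D3:**
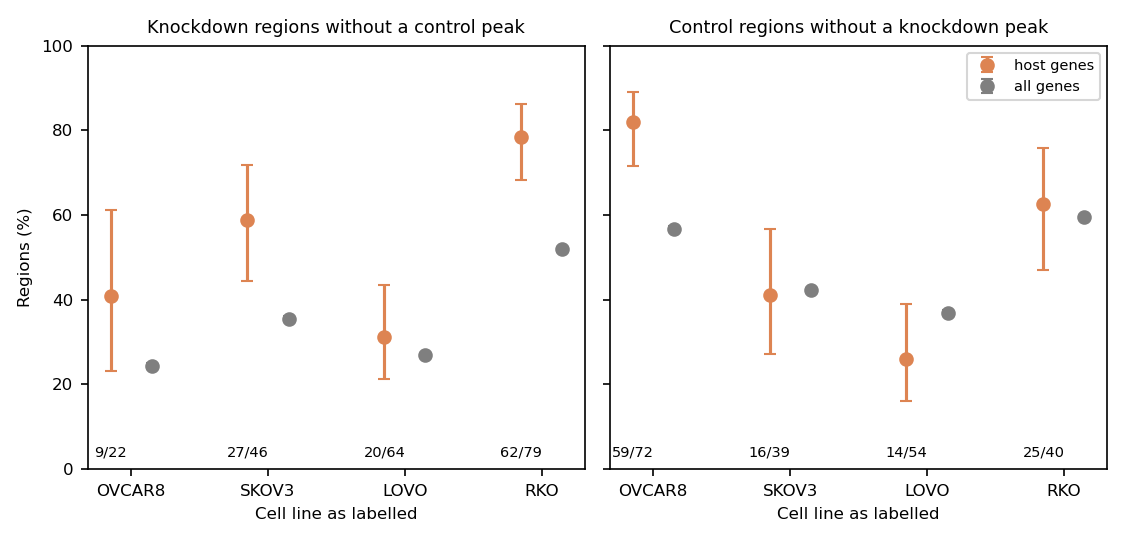
Share of knockdown regions without a control peak (left) and of control regions without a knockdown peak (right) in host genes (orange) and in all genes (grey), by line as labelled. Bars are 95% Wilson intervals and the fractions at the foot are host-gene counts. Losses in OVCAR8 (59 of 72) and gains in RKO (62 of 79) are the highest host shares.

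Over the 12 lists, host peaks merged into 192 regions by strand. Of these, 3 (1.56%) had a peak in all 12 lists, beside 5.84% over all genes and 3.66% over lncRNA genes, and 75 (39.1%) had a peak in 1 list, beside 36.3%. The remaining region shared by all lists, beside the pair in MIRLET7BHG, was chr3:195688912-195689605 in MIR570HG. Of the 75 seen in 1 list, 40 (53.3%) were in the RKO-labelled knockdown alone. Line specificity was read from the 6 control lists, as at least 3 peaks in every control list of 1 line and 0 in all other lines, among the 14 hosts with at least 3 peaks in a control list. It held for 4 hosts: MIR99AHG in OVCAR8, MIR23AHG and MIR137HG in SKOV3, and MIR4713HG in LOVO. No host met it in RKO, and none in any line when the same number of strongest peaks was taken from each list. The share over all genes was 9.71%, and 235 of 1017 lncRNA genes and 33 of 97 LINC genes met it. Of the 4 hosts, MIR137HG had peaks only on the strand opposite to the gene. MIR4713HG has no strand given, and 3 of its 11 peaks overlapped no other gene.

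Peaks were seldom on the hairpins themselves. Of the 109 host hairpins, 4 (3.67%) were reached by a peak on their strand in any list, beside 115 of 1558 (7.38%) of all hairpins in the RefSeq table, and 11 had a peak within 500 bp. Only 60 of the 109 lie in hosts with a peak. For 13 hosts the table held no hairpin, and for MIR99AHG it held no miR-125b hairpin. GGAC occurred on the hairpin strand in 21 of the 109 (19.3%) and in 27.3% of all hairpins. MIR3619 in MIRLET7BHG, whose sequence above holds GGAC at 2 places, lay wholly inside a peak in both SKOV3-labelled knockdown lists and in no SKOV3 control list, where the nearest peaks were 1047 and 1273 bp away. In the OVCAR8 control lists the nearest peaks were 162 and 165 bp away, and in OVCAR8-labelled knockdown 1625 and 1589 bp. MIR570 lay wholly inside a peak in LOVO knockdown and LOVO control. MIR4453 lay wholly inside a peak in LOVO control, RKO-labelled knockdown and RKO control, and in LOVO knockdown the nearest peak was 50 bp away.

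At MIR34A (chr1:9151668-9151777, minus strand) a peak lay just downstream of the hairpin in 8 lists. The gap was 42 and 49 bp in SKOV3-labelled knockdown, 48 and 37 bp in OVCAR8 control, 9 bp in LOVO knockdown against 35 bp in LOVO control, and 0 bp in RKO-labelled knockdown against 24 bp in RKO control. The RKO-labelled knockdown peak covered the 16 bases at the 3′ end of the hairpin that are in capitals above. No such peak was in the OVCAR8-labelled knockdown or SKOV3 control lists. At MIR130A (chr11:57641198-57641286, plus strand) a peak lay upstream in all 8 ovarian lists. The gap was 122 and 117 bp in OVCAR8-labelled knockdown against 127 and 140 bp in OVCAR8 control, and 122 and 118 bp in SKOV3-labelled knockdown against 49 and 65 bp in SKOV3 control.

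**Figure D4:**
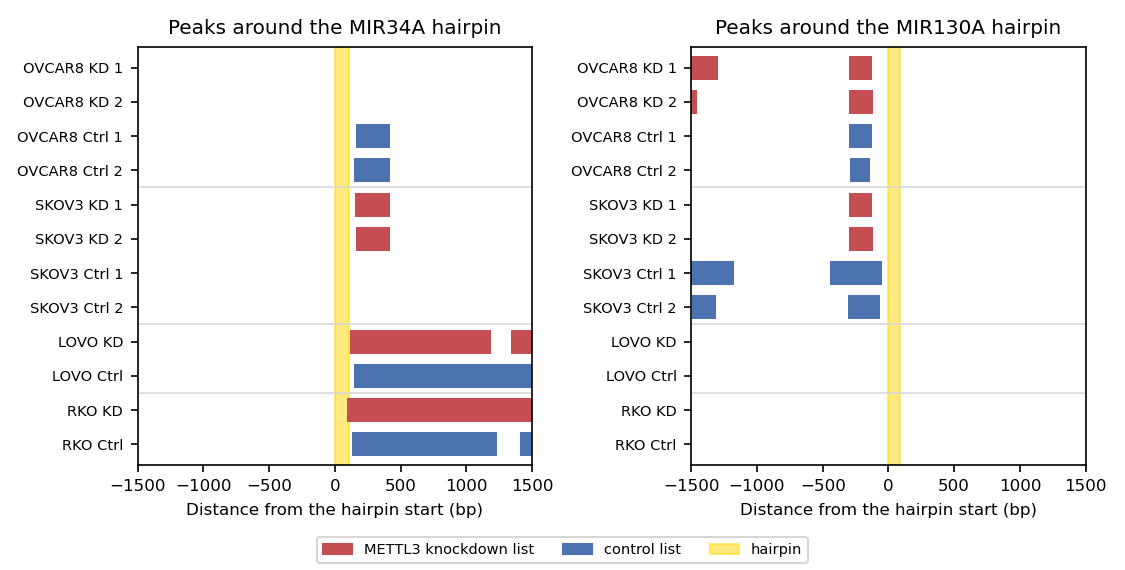
Peaks in each list within 1500 bp of the hairpins MIR34A (left) and MIR130A (right), by distance in bp from the hairpin's first base along the transcript, with knockdown lists in red above control lists in blue for each line as labelled and the hairpin in yellow. Downstream of MIR34A a peak lies 0 to 49 bp from the hairpin in 8 lists, and upstream of MIR130A 49 to 140 bp from it in the 8 ovarian lists.

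The let-7 hairpins of MIRLET7BHG, the host with the most peaks, had no peak on them. The nearest peak on the same strand was 1215 bp from MIRLET7B and 2161 bp from MIRLET7A3, but it lay beyond the end of the host. The last peak inside the host ended 22328 bp from its start, in LOVO knockdown. MIRLET7A3 begins at 26752 bp and MIRLET7B at 27689 bp. In MIR100HG the nearest was 766 bp from MIR125B1, 28240 bp from MIRLET7A2 and 32842 bp from MIR100. In MIR99AHG it was 3506 bp from MIR99A and 4245 bp from MIRLET7C. Among the epithelial hosts, a peak lay 247 bp from MIR200C in LOVO knockdown against 240 bp in LOVO control, and 121 bp from MIR429 in LOVO knockdown against 418 bp in LOVO control.

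Some peaks lay at the start of a host. Of 28 hosts with a start window in the RefSeq table (250 bases before to 50 after an annotated start) and a peak on their own strand, 14 (50%) had a peak over a start window in some list. The share was 23.8% over lncRNA genes and 25.5% over all genes, and genes with several annotated starts have more chances. MIR130AHG had such a peak in 9 lists, MIRLET7BHG in 7 and MIR3677HG in 6, while 4 of the 14 had it in 1 list and 3 in 2 lists. Host genes with a hyphen in the symbol were not members. The largest of these, MIR4435-2HG, had 15 and 16 peaks in OVCAR8-labelled knockdown against 11 and 13 in OVCAR8 control, and 32 and 27 in SKOV3-labelled knockdown against 42 and 47 in SKOV3 control. It had 9 against 13 in LOVO and 20 against 23 in RKO.

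The genes that process primary microRNAs carried peaks as well, and all 16 of the list had at least 1. AGO2, the slicing Argonaute, had 2 and 2 peaks in OVCAR8-labelled knockdown against 3 and 3 in OVCAR8 control, 13 and 8 in SKOV3-labelled knockdown against 18 and 16 in SKOV3 control, 4 against 4 in LOVO and 2 against 8 in RKO. Its mean difference was -0.67 in log2(peaks + 1) (exact permutation p = 0.0278, adjusted p = 0.821). DGCR8, the hairpin-binding partner of DROSHA, had a difference of -0.33 (exact permutation p = 0.0417, adjusted p = 0.821). Its peaks, knockdown first, were 2 and 2 against 3 and 3 in OVCAR8 and 4 and 5 against 5 and 5 in SKOV3. They were 7 against 8 in LOVO and 3 against 5 in RKO. SRRT, which feeds transcripts to DROSHA, had 10 and 9 peaks in SKOV3-labelled knockdown against 2 and 3 in SKOV3 control and 2 and 2 in OVCAR8-labelled knockdown against 10 and 10 in OVCAR8 control. DROSHA moved in the same directions, with 7 and 7 against 2 and 2 in SKOV3 and 2 and 3 against 8 and 9 in OVCAR8, knockdown first. In LOVO, SRRT had 8 against 7 and DROSHA 6 against 7. In RKO, SRRT had 2 against 8 and DROSHA 1 against 8. In OVCAR8, 5 of 12 list genes with a peak were called lower in the labelled knockdown and 0 higher (35.8% and 11.8% of all genes), and in SKOV3 0 of 12 lower and 3 higher (23.9% and 17.8%). In LOVO, 3 of 15 were called lower in knockdown and 2 higher (20.4% and 10.4% of all genes), and in RKO 6 of 16 lower and 0 higher (30.5% and 25.9%).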

How the data were processed

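MeRIP and input libraries were made from chromatin-associated RNA per the labels' protocols. The submitters' processing notes name Trim Galore 0.6.6, Bowtie2 2.4.2, HISAT2 2.1.0, MACS2 2.2.7.1 and the build hg38, with no role or order. The deposited ovarian lists give a fold enrichment over input (a ratio), a score, and −log10 p and −log10 q values per peak, per the narrowPeak layout of the authors' files. The deposited colorectal lists give 1 score per peak, whose definition the files and labels do not state, as they do not state how the 2 libraries of a group were joined. These values, the authors' own, were used only to rank or filter peaks within a list. The files hold no read totals, so the sequencing depth behind a peak is unknown.

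The members, lists and comparisons were chosen with earlier results of these data known. Peaks on chromosomes 1 to 22 and X were assigned to every RefSeq gene they overlap by at least 1 bp, on either strand. The peak count per gene and list was compared by exact permutation, by calls of at least 2-fold on peaks + 1 and by regions lost or gained, as described with the results. Named hosts are those with at least 3 peaks in a list or with a hairpin that a peak reaches. Other hosts named come from the lists of hosts by the microRNA they carry or, like MIRLET7IHG and the hosts listed under a call, were chosen after their values were seen. The tests were checked on simulated data. Python 3.11.15, numpy 2.4.6, pandas 2.3.3 and scipy 1.17.1 were used. Alternatives were other rules for assigning peaks, a −log10 q or score of at least 5, the 15484 strongest peaks of each list, another pseudocount, and leaving out libraries.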

Additional observations from a re-analysis of the deposited data

Results flagged for a closer look

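For 12 hosts every list moved one way in OVCAR8 and the opposite way in SKOV3, by at least 2-fold in each. By the same rule over all genes, 1996 of the 4085 lower in OVCAR8 were higher in SKOV3. Of the 1353 higher in OVCAR8, 1190 were lower in SKOV3. The difference between the lines was not tested, and the lists labelled OVCAR8 knockdown share 95% of their host-gene peaks with SKOV3 control. The values are the OVCAR8 difference minus the SKOV3 difference, each knockdown minus control in mean log2(peaks + 1). They were -5.67 for MIR100HG, -5.49 for MIR3936HG, -5.34 for MIR924HG and -4.32 for MIR99AHG. They were -3.09 for MIR193BHG, -2.50 for MIR550A3HG, -2.29 for MIR34AHG, -2.29 for MIR762HG, -2.00 for MIR600HG and -2.00 for MIR1915HG. The opposite sign was seen for MIR137HG at 4.32, whose peaks lie on the other strand, and for MIR22HG at 3.16. No host had opposite calls in LOVO and RKO.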

How the results depend on the processing

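The mean over lines of the log2 ratio of host peaks, knockdown over control, was -0.076. Its error of 0.045 comes only from the spread between the 2 lists of each ovarian group. It holds nothing from LOVO or RKO and leaves out the spread between lines, where OVCAR8 was lower in knockdown and SKOV3, LOVO and RKO higher. The mean ratio was 0.084 at the stricter peak threshold and 0.25 with an equal number of peaks a list. Chosen after seeing the data, it was -0.43 without the RKO lists, 0.61 without the ovarian lists and -0.013 without MIR100HG, so it has no settled sign. The permutation test called 0 genes under every alternative run, which its floor on p made likely in advance, so this is no check on the result. Leaving out 1 replicate at a time gave 22 to 25 lower and 31 to 32 higher calls of hosts, summed over lines, beside 22 and 31. Without the RKO lists there were 16 higher calls, and without the ovarian lists 8 lower and 19 higher. LOVO losses were 41.7% at the stricter threshold and 48.3% with equal numbers, and RKO losses 42.1% and 35.7%. Leaving out 1 replicate gave losses of 81.5 to 84.7% in OVCAR8 and 43.6 to 46.2% in SKOV3, and gains of 40% to 50% and 52.6 to 60.9%. Line-specific hosts numbered 8 with a minimum of 1 peak, 0 with equal numbers and 4 without any 1 control replicate. Hairpins numbered 11 within 500 bp. The cause of these shifts was not tested. With the replicate block the permutation test called 0 genes, under the same limit. Deviations of same-numbered lists correlated at 0.018 in OVCAR8 and 0.0082 in SKOV3, so the numbers do not show pairing.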
